A study of Mus musculus with 12 samples.

Results

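The genes described are the Hox genes proper, taken as every row of the expression table whose symbol is Hoxa, Hoxb, Hoxc or Hoxd followed by a number. The rule found 39 of 23284 genes, with 11 members in the HoxA cluster, 10 in HoxB, 9 in HoxC and 9 in HoxD. RNA came from the prostate of mice aged 4 months on a mixed background of the strains 129/SvImJ and C57Bl/6J. Poly-A selected RNA was sequenced in 12 libraries, of which 6 were wild type and 6 carried a null allele in homozygous form; the latter are called null here. The labels do not say how the allele was made, which lobes of the prostate were taken, or whether each library came from its own animal, so p-values measure the spread between libraries, which may be technical.

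Hox genes encode homeodomain transcription factors that lie side by side in 4 clusters. Genes of the same rank in different clusters are paralogs and carry the same number, from group 1 at the anterior end to group 13 at the posterior end of a cluster. In general, the position of a gene in its cluster follows the place along the body axis where it is used, and the posterior groups act in the hindgut, the limbs and the urogenital tract. Hoxa13 and Hoxd13 are needed for the prostate lobes and the seminal vesicle to form, Hoxa10 takes part in giving the anterior lobe its identity, and Hoxb13 acts in ventral prostate development and in the luminal epithelium of the adult gland.

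Values are on a log2 scale as deposited, and genes that prostate does not use scatter near a floor. The 95th percentile of 1101 olfactory receptor genes, 3.50, is used below as the top of that floor. Of 8 prostate epithelial markers 7 were above the floor in all 12 libraries. Among these, Pbsn, which encodes the secretory protein probasin, stood at 17.99 in wild-type and 15.83 in null libraries. Sbp, which encodes spermine-binding protein, was at 19.12 in wild-type but at 4.07 in null libraries, close to the floor. The libraries of each genotype fall into sets of 3 that were drawn from these data in an earlier analysis: wild-type libraries 1 to 3 and 4 to 6, null libraries 1, 2 and 5 and null libraries 3, 4 and 6. Called genes are given over the 12 libraries and, where a second p follows, over the 4 set means, 2 against 2. Libraries of a set may depend on each other, so p-values over 12 libraries can be too small, while 4 means give little power, so that a p past the threshold over set means does not show that a gene did not differ. The summed level of 10 seminal vesicle genes was 8.12 to 11.81 in wild-type and 16.85 to 20.39 in null libraries. In bulk tissue, fewer cells of a type and less RNA per cell cannot be told apart.

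Hox expression clear of the floor came from 3 of the 4 clusters. In 26 members the value was above the floor in every library, 9 in HoxA, 9 in HoxB and 8 in HoxD. These same 26 reached 4 or more in 6 or more libraries and were tested. Of the 13 members that did not reach this level, 9 were the HoxC genes and the others lay in the other clusters. Values of the HoxC genes lay between 1.93 and 4.83, and 32 of their 108 values were above a floor that 5% of olfactory receptor values exceed. The highest single HoxC value was that of Hoxc10 in null library 1, whose other null values reached no more than 3.94. No HoxC member was above the floor in all 12 libraries.

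**Figure D1:**
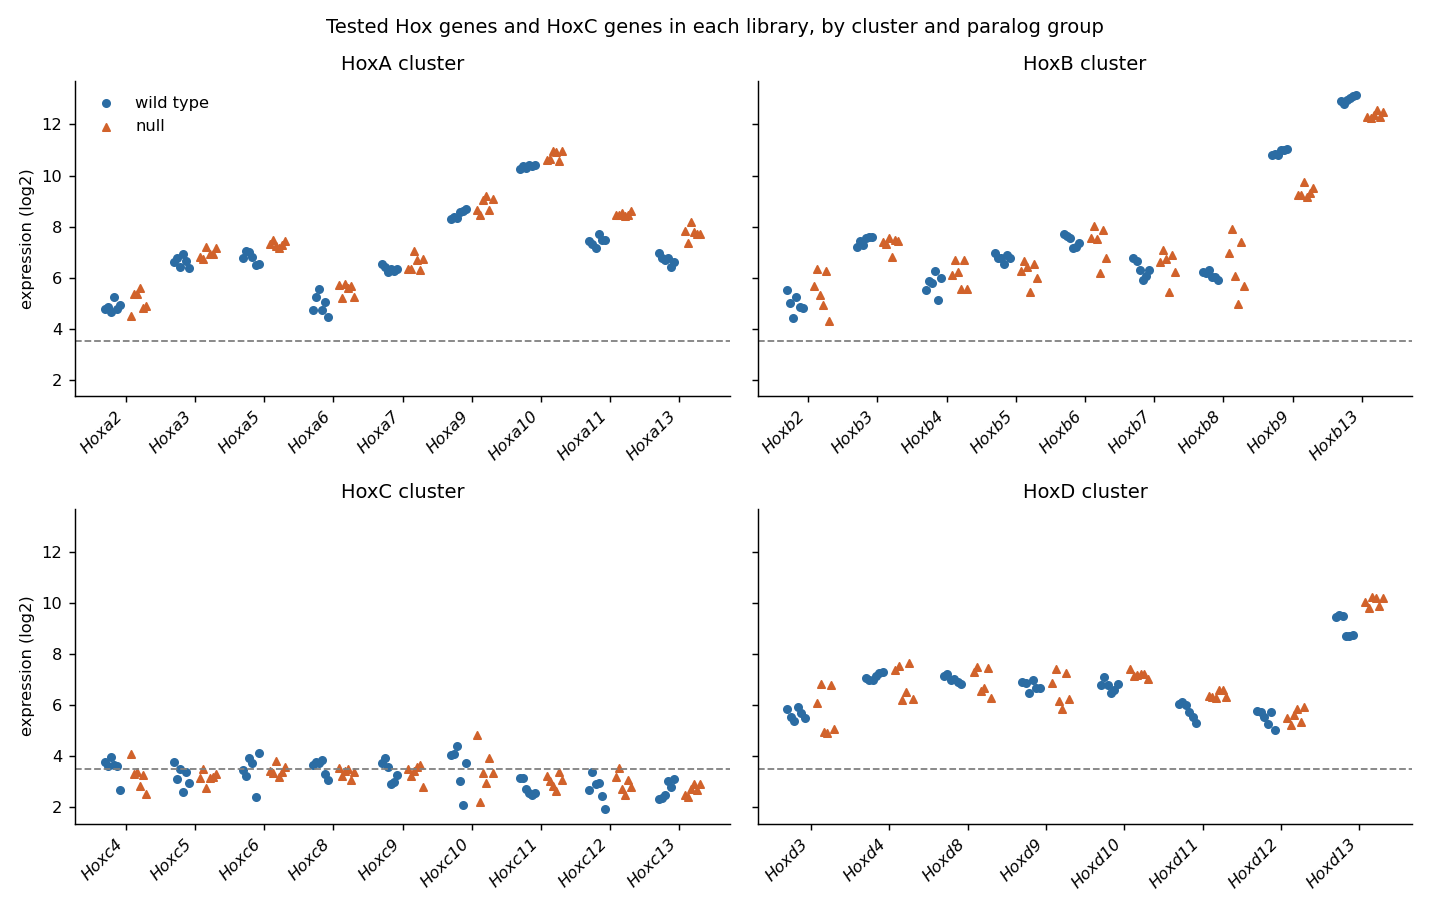
Expression of the 26 tested Hox genes and the 9 HoxC genes on the deposited log2 scale, one panel per cluster with genes ordered by paralog group. Each point is a library (6 wild type, 6 null), and the dashed line is the floor of 3.50. HoxC genes lie around the line, and the highest values in the other clusters are those of posterior members.

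Per kilobase of the longest annotated transcript, the highest member of each active cluster was a posterior one, though not every posterior member was high. Hoxb13 had a wild-type level of 11.86 on the log2 scale per kilobase, followed by Hoxb9 at 9.56, while Hoxb2 to Hoxb8 lay between 4.27 and 6.46. Hoxa10 was highest in HoxA at 8.99, with Hoxa9 at 6.79, Hoxa11 at 6.24, Hoxa5 at 5.87 and Hoxa13 at 5.45. In HoxD the level was 7.80 for Hoxd13 and 4.07 to 5.91 for Hoxd3 to Hoxd12, with Hoxd12 at 4.18 below Hoxd4 at 5.78. The group 13 paralogs therefore differed in level, in the order Hoxb13, Hoxd13, Hoxa13, and their libraries did not overlap before or after the division by length. The sources used here do not give the annotation the submitters counted on, so the lengths are an approximation.

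Between genotypes Hoxa9, Hoxa10, Hoxa11 and Hoxa13 and Hoxd10, Hoxd11 and Hoxd13 rose in null prostate, while Hoxb9 and Hoxb13 fell. Of 26 tested members, 10 rose, 3 fell and 13 were not called by limma (Benjamini-Hochberg adjusted p under 0.05). Of all 15096 tested genes 53.1% were called (28.0% higher, 25.1% lower), so the number of called members is near the background and is no result about the members as a whole. Called members differing by at least 0.5 numbered 9, and 22.3% of all tested genes met this rule. Over set means 2 rose and 2 fell, where 14.5% of all genes were called (7.58% higher, 6.96% lower). With the library set as a random block 6 rose and 2 fell, where 33.0% of all genes were called (17.8% higher, 15.2% lower). An exact rank-sum test called 7 higher and 3 lower, where it called 46.3% of all genes (24.5% higher, 21.8% lower). Null values lay above all wild-type values in 6 members and below them in 2 (30.8% in all), against 17.4% and 15.2% of all tested genes (32.6% in all). The members' median difference was 0.28, and that of all tested genes was 0.012.

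By position, the calls were as follows. In paralog groups 9 to 13, 9 of 11 tested members were called, 7 higher and 2 lower, where 28.0% and 25.1% of all genes were called. Over set means 2 of these 11 rose and 2 fell (7.58% and 6.96% of all genes). In groups 1 to 8, Hoxa3, Hoxa5 and Hoxa6 rose, Hoxb5 fell and 11 were not called. By cluster, 7 of 9 tested HoxA members rose, 3 of 9 HoxB members fell and 3 of 8 HoxD members rose, and the other members were not called. Over set means 2 HoxA members rose, 2 HoxB members fell and the HoxD members were not called. Of HoxB differences 4 were positive and 5 negative, and of HoxD differences 5 were positive and 3 negative. The difference between clusters or paralog groups in these counts was not tested.

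**Figure D2:**
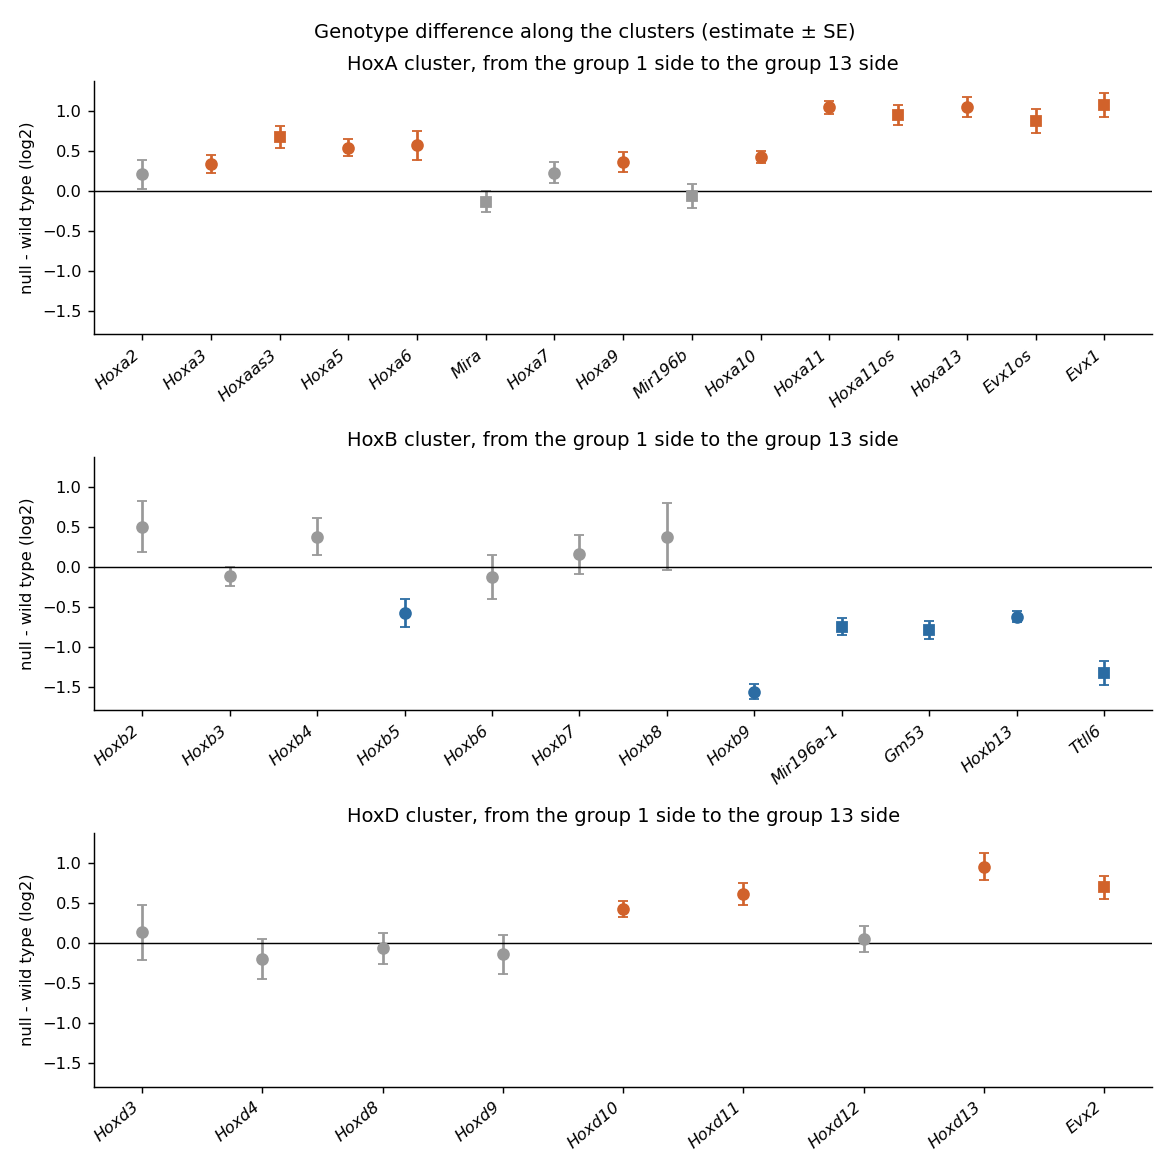
Difference between genotypes (null minus wild type, log2, estimate ± SE over 12 libraries) for tested genes in their order along HoxA, HoxB and HoxD, from the group 1 side to the group 13 side. Circles are Hox genes, squares are other transcripts of the same region, and orange, blue and grey mark genes called higher, called lower and not called. The group 13 ends of HoxA and HoxD lie above 0 and that of HoxB below 0.

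Hoxb13 was lower in every null library. Its 6 wild-type values were 12.93, 12.80, 12.95, 13.05, 13.10 and 13.14, and its null values ran from 12.23 to 12.56 with a median of 12.33. The lowest wild-type library was above the highest null library. The difference was -0.62 ± 0.070 (SE, n = 6 and 6; adjusted p = 3.85e-06, and 0.0355 over set means), so wild-type libraries held 1.54 times the null level.

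Hoxb9, the next Hox gene along the cluster, fell furthest of all members. It stood at 10.81 to 11.04 (median 10.93) in wild-type and at 9.14 to 9.75 (median 9.28) in null libraries, with no overlap. The difference was -1.56 ± 0.0914 (SE, n = 6 and 6; adjusted p = 7.39e-09, and 0.00262 over set means), or a wild-type level 2.95 times that in null prostate.

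The stretch between Hoxb9 and Hoxb13 holds no other Hox gene. A list of 12 noncoding RNA rows lying in or near the clusters was drawn up by position after the values were seen. Between Hoxb9 and Hoxb13 it holds Gm53, a long noncoding RNA gene, and Mir196a-1, a microRNA gene. Gm53 fell from 9.86 to 9.08 (adjusted p = 4.59e-05, and 0.0467 over set means). Reads at Mir196a-1 fell from 7.63 to 6.89 (adjusted p = 2.98e-05, and 0.0404 over set means). Poly-A libraries read longer transcripts over such a locus and not the mature microRNA. Ttll6, a tubulin glutamylase gene just beyond Hoxb13, fell from 6.15 to 4.83 (adjusted p = 4.44e-06, and 0.0190 over set means). For these 3 genes too, the genotypes did not overlap. Hoxb8, on the other side of Hoxb9, was not called, with a difference of 0.38 (adjusted p = 0.476).

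The microRNAs of the clusters are shown because they lie between Hox genes and miR-196 is known to target Hox transcripts. The mature sequences below are from RefSeq (build GRCm38.p6), 5′ to 3′, with the seed, bases 2 to 8, in capitals. The 2 miR-196 sequences share one seed and the 2 miR-10 sequences share another.
miR-196a-5p: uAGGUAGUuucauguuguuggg
miR-196b-5p: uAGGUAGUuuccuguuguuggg
miR-10a-5p: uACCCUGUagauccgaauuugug
miR-10b-5p: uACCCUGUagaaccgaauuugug
Mir196a-1 lies in HoxB at chr11:96265187-96265208 on the plus strand, and Mir196b lies in HoxA at chr6:52230129-52230150 on the minus strand, both coordinates being those of the mature form in GRCm38.p6. Mir196a-2 in HoxC, Mir10a in HoxB and Mir10b in HoxD did not reach the level for testing. Reads at Mir196b did not differ past the threshold (-0.06, adjusted p = 0.739). A search of the longest protein-coding transcript of 21877 genes for a 22-base complement of miR-196a with at most 3 mismatches found 1 gene, Hoxb8. The site is printed in DNA letters, with bases that complement the microRNA in capitals.
Hoxb8 site: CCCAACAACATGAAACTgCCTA
All bases but 1 are complementary. Hoxb8 itself stood at 5.91 to 6.30 in wild-type libraries and spread from 4.96 to 7.92 among null libraries, as described further on.

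Hoxa13 and Hoxd13 rose where Hoxb13 fell. Hoxa13 stood at 6.41 to 6.96 (median 6.74) in wild-type and 7.37 to 8.18 (median 7.74) in null libraries, and every null library was above every wild-type library. The difference was 1.05 ± 0.122 (SE, n = 6 and 6; adjusted p = 5.78e-06, and 0.0170 over set means), a null level 2.07 times that of wild type.

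Hoxd13 stood at 8.71 to 9.53 (median 9.11) in wild-type and 9.81 to 10.24 (median 10.12) in null libraries. Its genotypes did not overlap either, but wild-type libraries 1 to 3 stood at 9.45 to 9.53 and libraries 4 to 6 at 8.71 to 8.77. The difference of 0.96 ± 0.169 (SE, n = 6 and 6) passed over 12 libraries (adjusted p = 0.00039) and not over set means (adjusted p = 0.0806). Against wild-type libraries 1 to 3 alone it was 0.58 (adjusted p = 0.000623), and against libraries 4 to 6 alone it was 1.34 (adjusted p = 1.27e-06).

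**Figure D3:**
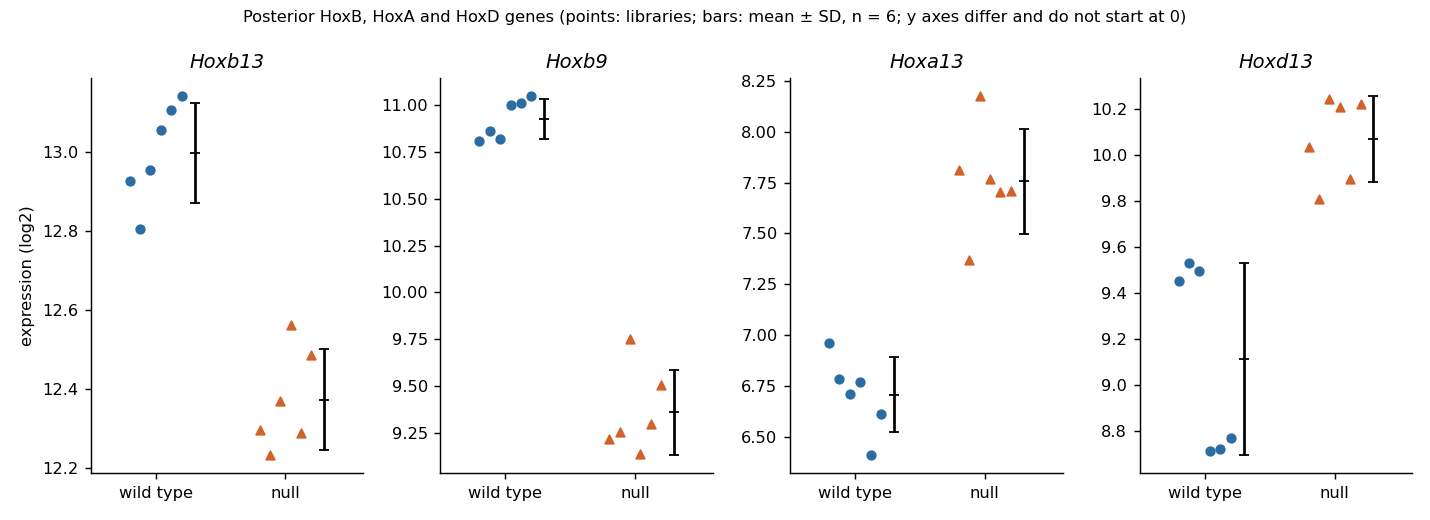
Hoxb13, Hoxb9, Hoxa13 and Hoxd13 by library on the log2 scale, with the mean ± SD of each genotype (n = 6) beside the points. The y axes differ between panels and do not start at 0. Null libraries lie below all wild-type libraries for the HoxB genes and above them for Hoxa13 and Hoxd13, and the wild-type values of Hoxd13 fall into 2 separate triplets.

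The genotype difference of Hoxb13 was compared with that of each paralog through the difference of the values within each library, in 3 exact two-sided permutation tests over the libraries with Benjamini-Hochberg adjustment over the 3 pairs. Hoxb13 minus Hoxa13 was 6.29 ± 0.28 in wild type against 4.62 ± 0.25 in null prostate (SD, n = 6 each; exact p = 0.00216, adjusted p = 0.00325). Hoxb13 minus Hoxd13 was 3.89 ± 0.53 in wild type against 2.31 ± 0.11 in null prostate (SD, n = 6 each; exact p = 0.00216, adjusted p = 0.00325). In both pairs p was the smallest that the arrangements of 6 and 6 libraries can give. This outcome was fixed by the single genes, since Hoxb13 fell and each paralog rose without overlap between genotypes. Both tests therefore add no evidence to the single-gene results. The permutations treat the 12 libraries as independent; over set means no exact p could go below 0.333. Hoxa13 minus Hoxd13 was -2.41 ± 0.33 in wild type against -2.31 ± 0.18 in null prostate (SD, n = 6 each), and the change of 0.095 did not pass (exact p = 0.541). Its sign depended on the wild-type set, at 0.36 (exact permutation test, adjusted p = 0.0357) against libraries 1 to 3 and -0.17 (adjusted p = 0.202) against libraries 4 to 6.

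Hoxa11, a gene of the reproductive tract and limb, rose as much as Hoxa13. It stood at 7.16 to 7.70 (median 7.45) in wild-type and 8.40 to 8.61 (median 8.46) in null libraries. The difference was 1.05 ± 0.0807 (SE, n = 6 and 6; adjusted p = 8.78e-08, and 0.00982 over set means). Its antisense transcript Hoxa11os, named Hoxa11as in the table, rose from 10.87 to 11.82 (adjusted p = 2.17e-05, and 0.0381 over set means). The sources used here do not say whether counting used strand. Without strand, reads of this overlapping pair cannot be told apart.

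Other posterior members moved less. Hoxa10 rose from 10.35 ± 0.06 to 10.78 ± 0.18 (SD, n = 6 each; limma adjusted p = 0.000188, and 0.0887 over set means), and null libraries 3, 4 and 6, at 10.93 to 10.95, were above null libraries 1, 2 and 5, at 10.58 to 10.64. Hoxa9 rose by 0.37 (adjusted p = 0.0216, and 0.269 over set means), with 9.03 to 9.21 in null libraries 3, 4 and 6 and 8.47 to 8.65 in the other null libraries, which overlapped wild type at 8.28 to 8.69. Without null libraries 3, 4 and 6 the Hoxa9 difference was 0.11 (adjusted p = 0.369). Leaving out wild-type libraries 1 to 3 gave 0.23 (adjusted p = 0.258).

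Hoxd11, which works with Hoxa11 in limb and kidney, stood at 5.32 to 6.11 (median 5.88) in wild-type and 6.29 to 6.62 (median 6.34) in null libraries. It rose by 0.61 (adjusted p = 0.00187, and 0.132 over set means). Hoxd10 rose by 0.43 from 6.48 to 7.12 in wild-type to 7.03 to 7.40 in null libraries (adjusted p = 0.00322, and 0.146 over set means). Hoxd12, which lies between Hoxd11 and Hoxd13, was not called and stood at 5.04 to 5.79 in wild-type and 5.23 to 5.94 in null libraries (difference 0.05, adjusted p = 0.808).

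Among the anterior and central HoxA genes, Hoxa5, known from lung and axial skeleton, rose without overlap. It stood at 6.50 to 7.06 (median 6.79) in wild-type and 7.16 to 7.46 (median 7.31) in null libraries (difference 0.54, adjusted p = 0.000595, and 0.0974 over set means). Hoxa6 stood at 4.45 to 5.55 (median 4.88) in wild-type and 5.20 to 5.76 (median 5.62) in null libraries (difference 0.57, adjusted p = 0.0159, and 0.146 over set means). Its call was lost without wild-type libraries 4 to 6 (0.35, adjusted p = 0.173). Without either null set the difference stayed at 0.57 and p, from fewer libraries, was past the threshold (adjusted p = 0.0527 and 0.0615). Hoxa3 rose by 0.34 (adjusted p = 0.0223, and 0.244 over set means), and this call was lost when wild-type library 3 or 6 or null library 3 or 6 was left out (differences over the 12 libraries left out in turn from 0.29 to 0.40), or without wild-type libraries 1 to 3 (0.31) or null libraries 3, 4 and 6 (0.19). Hoxa2 (0.21) and Hoxa7 (0.23) were not called (adjusted p = 0.350 and 0.147).

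The genes just past the posterior ends of HoxA and HoxD rose as well. Evx1 and Evx2, even-skipped homeobox genes next to Hoxa13 and Hoxd13, stood near the floor in wild-type libraries. Evx1 rose from 4.06 to 5.14 (adjusted p = 4.37e-05, and 0.0435 over set means). Evx2, named after its values were seen, rose from 4.34 to 5.04 (adjusted p = 0.000967, and 0.0806 over set means). Their null values were above all wild-type values.

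Central HoxB and HoxD genes were split within the null genotype. Null libraries 1, 2 and 5 were above null libraries 3, 4 and 6 by at least 0.5 in the set means of 10 of 26 tested members (38.5%), against 6.47% of all tested genes. The 10 genes, shown by library after their values were seen, were Hoxb2, Hoxb4, Hoxb5, Hoxb6, Hoxb7 and Hoxb8 of HoxB and Hoxd3, Hoxd4, Hoxd8 and Hoxd9 of HoxD, and no HoxA member. In Hoxb4, Hoxb5 and Hoxb7 the null sets overlapped despite this gap, and in the other 7 of the 10 they did not. Over all members the sets did not overlap in 14 and in 39.0% of all tested genes. Libraries 1, 2 and 5 were above in 7 members (14.3% of all genes) and libraries 3, 4 and 6 in the other 7 (24.6% of all genes). The sets were formed from these libraries, so the differences between them carry no test.

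Hoxb8 showed the widest gap. It stood at 6.95, 7.92 and 7.40 in null libraries 1, 2 and 5 and at 6.06, 4.96 and 5.66 in null libraries 3, 4 and 6. Wild-type libraries, at 5.91 to 6.30, lay below the first set and overlapped or exceeded the second. Hoxd3 stood at 6.07, 6.85 and 6.79 in null libraries 1, 2 and 5 and at 4.96, 4.93 and 5.06 in libraries 3, 4 and 6, with wild type at 5.37 to 5.92 between them. Hoxd4 stood at 7.39, 7.56 and 7.65 against 6.21, 6.53 and 6.26, again with wild type between at 6.99 to 7.31. For Hoxd8 the values were 7.31, 7.51 and 7.44 against 6.54, 6.70 and 6.30, with wild type at 6.85 to 7.23. In these 3 HoxD genes, 1 null set was above and the other below all wild-type libraries. Hoxd9 followed the same order of the null sets, at 6.89 to 7.42 against 5.84 to 6.25, but its wild-type values, the lowest of which was 6.47, overlapped the upper set.

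The split ended between neighbouring genes. In HoxD the gap between null set means was 1.59 for Hoxd3, 1.20 for Hoxd4, 0.91 for Hoxd8 and 1.11 for Hoxd9, then 0.11 for Hoxd10, 0.01 for Hoxd11, -0.45 for Hoxd12 and -0.31 for Hoxd13. In HoxB it was 1.24 for Hoxb2, 0.13 for Hoxb3, 0.71 for Hoxb4, 0.54 for Hoxb5, 1.02 for Hoxb6, 0.73 for Hoxb7 and 1.86 for Hoxb8, then -0.21 for Hoxb9 and -0.20 for Hoxb13. Hoxb3 thus stood out among the central HoxB genes. At Hoxd12, Hoxd13 and Hoxb13 the null sets again did not overlap, in the opposite order, with libraries 3, 4 and 6 above. HoxA gaps lay between -0.52 (Hoxa9) and 0.08 (Hoxa5).

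**Figure D4:**
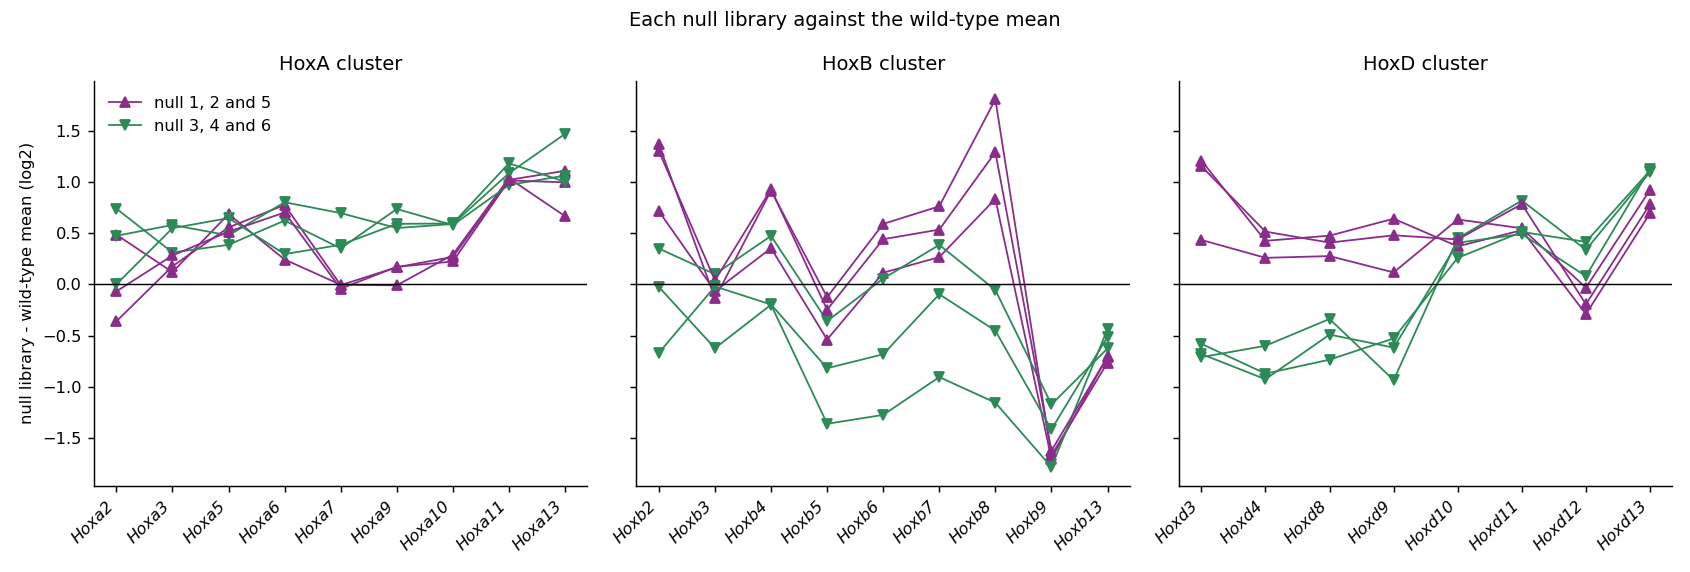
Each null library minus the wild-type mean (log2) for the tested genes of HoxA, HoxB and HoxD, ordered by paralog group. Purple lines are null libraries 1, 2 and 5 and green lines are null libraries 3, 4 and 6. The sets part from Hoxd3 to Hoxd9 and join at Hoxd10 and Hoxd11, and in HoxB they are widest apart at Hoxb8 and close again at Hoxb9.

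For these genes the comparison of genotypes depended on which null libraries were used. With all 12 libraries Hoxb5 fell by 0.58 (adjusted p = 0.0137, and 0.151 over set means), from 6.52 to 6.97 (median 6.77) to 5.42 to 6.66 (median 6.34), and the other 9 of the 10 split genes were not called. The Hoxb5 difference was -0.30 (adjusted p = 0.0660) without null libraries 3, 4 and 6, -0.85 (adjusted p = 0.00200) without null libraries 1, 2 and 5 and -0.52 (adjusted p = 0.105) without wild-type libraries 1 to 3. Without null libraries 3, 4 and 6, 16 members were higher and 2 lower (25.8% and 24.7% of all genes), and the Hoxb8 difference was 1.31. Without null libraries 1, 2 and 5, 10 were higher and 8 lower (28.2% and 23.8% of all genes), and the Hoxb8 difference was -0.55. The differences of Hoxd3, Hoxd4, Hoxd8 and Hoxd9 were likewise positive with one null set and negative with the other. Since these genes were picked for the gap between the null sets, their values by set are a description, with no test. The p-values and counts from fits without a null set are likewise descriptive, because the sets were drawn from these data.

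Markers of several tissues moved with the null sets. The summed level separated the sets in 7 of 11 marker lists and overlapped for fibroblast, adipocyte, nerve and leukocyte genes. The summed level of the 10 seminal vesicle genes was 18.36 to 20.39 in null libraries 1, 2 and 5 and 16.85 to 18.05 in libraries 3, 4 and 6. Svs2 and Pate4 had set gaps of 6.59 and 6.52 in this direction, while 6 of the 10 genes had gaps the other way. The summed level of 10 smooth muscle genes was 16.47 to 16.73 and 15.96 to 16.23, that of 5 urothelial genes 13.22 to 13.53 and 13.72 to 14.45, and that of 6 basal epithelial genes 11.20 to 11.30 and 11.77 to 11.82. Endothelial genes summed to 10.46 to 10.73 and 10.26 to 10.36, skeletal muscle genes to 11.85 to 12.26 and 11.66 to 11.78, and prostate epithelial genes to 19.18 to 19.22 and 19.38 to 19.62. Such sums follow their highest genes, as Acta1 (11.57 to 12.17 in null libraries) and Tgm4 (19.00 to 19.48) in the last 2 lists. Taken singly, 10 of 10 smooth muscle genes parted the sets in the order of the sum, an order seen in 14.3% of all genes. In 4 of 6 basal and 2 of 3 tested urothelial genes the order was also that of the sum (24.6% of all genes). Of 9 tested seminal vesicle genes 2 did so, and in these lists 0 parted the sets in the other order. Of 6 endothelial genes 3 followed the sum and 1 the other order. Of 5 tested skeletal muscle genes 2 parted the sets in the order of the sum and 0 in the other. Of 8 prostate epithelial genes 3 did so, and 1 parted them in the other order. Between genotypes, where 28.0% of all genes were called higher and 25.1% lower, 9 of 9 tested seminal vesicle genes, 2 of 3 urothelial, 5 of 6 basal and 3 of 6 adipocyte genes were called higher. Of 8 prostate epithelial genes 7 were lower and 1 higher, of 6 leukocyte genes 5 were lower, and of 5 skeletal muscle genes 3 were lower and 1 higher. Of 10 smooth muscle and of 6 endothelial genes 1 each was higher and 1 lower, of 9 fibroblast genes 1 was higher and 2 lower, and the 7 nerve genes were not called. Of all these markers, Myh4 of skeletal muscle was at the floor in all 12 libraries. The first 3 wild-type libraries had a seminal vesicle level of 11.74 to 11.81 and the last 3 one of 8.12 to 8.16. For the 10 split Hox genes, the first 3 minus the last 3 wild-type libraries gave from -0.22 (Hoxd4) to 0.46 (Hoxb7), positive in 6 and negative in 4. The part of these markers in the Hox differences was not tested.

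Promoter windows of 4 genes described above are printed as examples, 2 of group 13 and 2 of the genes split between null sets. RefSeq windows (GRCm38.p6), from 250 bases before to 50 bases after the start, were matched for 22 of 39 members, in 24 windows, Hoxb9 and Hoxb13 not among them. They were searched on both strands for TGACAG, the MEIS core, TTTATG, bound by Cdx and posterior Hox proteins, and TATAAA, the TATA box, and matches are in capitals, overlaps of TATAAA with its complement included. The windows are chr6:52260831-52261130 (minus strand) for Hoxa13, chr2:74667975-74668274 (plus strand) for Hoxd13, chr2:74721728-74722027 (plus strand) for Hoxd4 and chr11:96281655-96281954 (plus strand) for Hoxb8.
Hoxa13: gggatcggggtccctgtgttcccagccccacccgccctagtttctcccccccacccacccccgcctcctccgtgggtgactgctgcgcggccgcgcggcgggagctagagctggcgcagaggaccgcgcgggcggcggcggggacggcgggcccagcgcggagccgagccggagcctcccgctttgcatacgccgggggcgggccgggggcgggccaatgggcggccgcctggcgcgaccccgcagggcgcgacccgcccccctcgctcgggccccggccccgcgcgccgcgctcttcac
Hoxd13: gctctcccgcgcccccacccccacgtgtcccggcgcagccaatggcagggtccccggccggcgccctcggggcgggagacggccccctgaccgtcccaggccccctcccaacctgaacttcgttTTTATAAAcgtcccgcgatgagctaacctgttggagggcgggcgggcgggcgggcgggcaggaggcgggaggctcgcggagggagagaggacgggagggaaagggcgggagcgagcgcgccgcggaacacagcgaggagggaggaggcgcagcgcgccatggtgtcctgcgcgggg
Hoxd4: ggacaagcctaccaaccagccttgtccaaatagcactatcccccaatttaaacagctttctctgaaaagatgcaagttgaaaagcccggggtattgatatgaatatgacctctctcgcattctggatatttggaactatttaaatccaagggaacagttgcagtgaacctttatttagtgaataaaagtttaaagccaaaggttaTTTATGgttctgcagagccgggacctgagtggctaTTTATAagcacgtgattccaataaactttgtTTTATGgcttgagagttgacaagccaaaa
Hoxb8: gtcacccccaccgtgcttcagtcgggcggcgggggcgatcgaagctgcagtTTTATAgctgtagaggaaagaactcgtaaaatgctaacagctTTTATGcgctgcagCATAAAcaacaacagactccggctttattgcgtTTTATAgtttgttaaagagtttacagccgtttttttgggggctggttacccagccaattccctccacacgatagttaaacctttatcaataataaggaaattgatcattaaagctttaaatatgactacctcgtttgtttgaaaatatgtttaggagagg
The number of CG pairs is 45 in the Hoxa13 window, 37 in Hoxd13, 13 in Hoxb8 and 4 in Hoxd4. The median is 14.5 over the 24 Hox windows and 7 over 32851 windows. CG numbers in genes called higher are 45 (Hoxa13), 37 (Hoxd13), 29 (Hoxa5), 26 (Hoxa6), 22 (Hoxd10), 20 (Hoxa3), 15 (Hoxa11) and 4 (Hoxa9). The 2 Hoxa10 windows have 21 and 12, and the 2 Hoxd11 windows have 4 and 25. Among split genes the numbers are 20 (Hoxd3 and Hoxd9), 14 (Hoxb4), 13 (Hoxb8), 6 (Hoxd8) and 4 (Hoxd4). Hoxb2, Hoxb5, Hoxb6 and Hoxb7, also split, have no window here. Tested members neither called nor split have 9 (Hoxa2 and Hoxa7) and 13 (Hoxd12). Untested members have 29 (Hoxd1), 10 (Hoxb1) and 9 (Hoxc4). Genes called lower have no window here. The ranges overlap, and numbers above 20 belong to genes called higher and to Hoxd1, whose values stayed under the floor. No relation of CG number to the calls was tested. TTTATG is found in the Hoxd4 and Hoxb8 windows, in 5 of the 24 Hox windows and in 11.9% of all windows, and TATAAA in the Hoxd13, Hoxd4 and Hoxb8 windows and in 13.6% of all. TGACAG, in 19.2% of all windows, is in none of these 4. These matches describe the letters only.

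Hox proteins bind DNA together with cofactors of the TALE class, the Pbx, Meis and Pknox homeodomain proteins. The list of 10 genes holds such genes and Pbxip1, which encodes a Pbx-interacting protein and no TALE homeodomain. On this list 1 rose and 1 fell over 12 libraries, with 8 not called, Pbxip1 among them (2 of 10 called, where 53.1% of all genes were). Over set means 1 rose, and the list's median difference was 0.037. Pbx3 rose without overlap from 6.26 ± 0.22 to 7.44 ± 0.097 (SD, n = 6 each; limma adjusted p = 2.90e-07, and 0.0113 over set means). Meis3 fell by 0.44 (adjusted p = 0.0156, and 0.197 over set means), and its genotypes overlapped. Without either wild-type set the Meis3 difference stayed at -0.45 and -0.44 (adjusted p = 0.0627 and 0.0754), and without null libraries 3, 4 and 6 it was -0.20 (adjusted p = 0.182). Meis1, a partner of Hoxb13 named after its values were seen, was not called and stood at 9.67 in wild-type and 9.68 in null libraries.

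Of 19 genes known to set or maintain Hox expression, 16 were tested, of which 6 rose and 1 fell (3 fell under quantile or upper quartile scaling), where 28.0% and 25.1% of all genes were called. Over set means 3 rose (7.58% of all genes). Kmt2a, the trithorax-type methyltransferase that keeps Hox genes active, rose by 0.83 (adjusted p = 1.18e-09, and 0.00737 over set means). Psip1, which tethers the Kmt2a complex to chromatin, rose by 0.61 (adjusted p = 5.57e-07, and 0.0240 over set means). Zbtb16, a repressor of posterior HoxD genes in the limb, rose by 1.01 (adjusted p = 8.87e-07, and 0.0129 over set means). The acetyltransferase gene Kat6a rose by 0.47 (adjusted p = 6.27e-05, and 0.0557 over set means) and Gmnn, which encodes geminin, by 0.59 (adjusted p = 0.000237, and 0.0679 over set means). Bmi1, of Polycomb repressive complex 1 and named after its values were seen, was the gene that fell, by 0.37 (adjusted p = 0.000285, and 0.0804 over set means). The trunk activators Cdx1, Cdx2 and Cdx4 did not reach the level for testing. The list's median difference was 0.15.

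Protein-coding genes that flank the clusters were listed for comparison. Of 14, 13 were tested, of which 5 rose and 3 fell (28.0% and 25.1% of all genes), and over set means 3 rose and 2 fell (7.58% and 6.96% of all genes). Their median difference was 0.081. Cbx5, on the flank of HoxC, rose by 1.05 (adjusted p = 2.18e-09), although HoxC genes stayed around the floor. On the HoxA side Hibadh, a metabolic enzyme gene beyond Evx1, fell by 0.63 (adjusted p = 4.82e-09), opposite to Hoxa13 and Evx1. On the HoxD side Lnpk, an endoplasmic reticulum gene beyond Evx2, rose by 0.41 (adjusted p = 3.61e-06). All 3 passed over set means (adjusted p = 0.00497, 0.0125 and 0.0440).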

How the data were processed

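Libraries were made from poly-A RNA with TruSeq reagents and read on a HiSeq, per the labels' protocols. Tools named without roles in the submitters' processing notes are DESeq, Cufflinks 2.0.2, TopHat2 2.0.4 and CASAVA 1.8.2, with mm9 as the build. The deposited values are log2-scale expression per gene, from 1.07 to 21.6, and look variance-stabilised; the sources used here do not give the exact transformation. The table holds no counts, so the depth is unknown.

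For the tests, limma 3.58.1 (R 4.3.3) was run on the deposited log2 values with genotype as the only term, a mean-variance trend and robust moderation. Genes reaching 4 or more in 6 or more libraries (15096) were kept, p-values were Benjamini-Hochberg adjusted over all of them, and the threshold was 0.05. A second fit used the 4 set means. The code was tested on simulated data, in which the fit over 12 libraries also called unchanged genes beyond its threshold. The fit over set means there missed changes as large as many reported here. Far fewer genes were changed in the simulation than were called in these data, and the adjustment depends on that share. The rate of missed changes therefore does not carry over to these data. Hox members, lists and library sets were chosen with earlier results of these data known. Values in all libraries were summarised for group 13 and for up to 14 called members with a difference of at least 0.5. From each list at most 5 called genes were named, by adjusted p. Genes marked as named after their values were seen, such as Bmi1 and Evx2, came in addition. Kmt2a, Kat6a and Lnpk were matched through RefSeq synonyms. Gene order, promoters and microRNAs are from RefSeq GRCm38.p6 and transcript lengths from GENCODE M21, while the files use mm9. Alternatives covered the filter, scaling, moderation, test, library sets and each library left out. The targeted gene and some other genes are not reported here.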

Additional observations from a re-analysis of the deposited data

Results flagged for a closer look

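Among 58 checks for a library far from the rest of its genotype (26 tested Hox members and 3 paralog pairs in each genotype), 1 library was picked out, where chance gives about 1 in 20. Hoxb3 stood at 6.82 in null library 4, and the next lowest null library was at 7.31. Without that library the other null values of Hoxb3 lay inside the wild-type range of 7.20 to 7.60.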

How the results depend on the processing

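Over 24 alternatives, Hoxa11, Hoxa13, Hoxb9 and Hoxb13 kept their direction and were called in each, with differences from 0.93 to 1.18, 0.92 to 1.18, -1.66 to -1.46 and -0.76 to -0.52. Of the members, 10 were called higher with all libraries, 2 over set means, 6 with the set as a random block and 16 without null libraries 3, 4 and 6. In the lower direction 3 were called, and 8 without null libraries 1, 2 and 5. Leaving out 1 library gave 9 to 10 higher and 3 to 3 lower. On the list of TALE cofactors and Pbxip1, with 1 higher and 1 lower, 1 to 3 were higher and 1 to 2 lower when 1 library was left out. Without null libraries 1, 2 and 5, 3 were higher and 2 lower. None was lower (0) with the exact rank-sum test, over set means, with the random block, without either wild-type set or without null libraries 3, 4 and 6; at an unadjusted p under 0.05, 1 was lower with the rank-sum test and without either wild-type set, and 0 with the others. Hoxa13 minus Hoxd13 changed by 0.36 without wild-type libraries 4 to 6 and by -0.17 without libraries 1 to 3, and by 0.019 to 0.19 with 1 library left out; Hoxb13 minus Hoxa13 changed by -1.74 to -1.59 and Hoxb13 minus Hoxd13 by -1.70 to -1.48.

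Members whose sign turned were not called over 12 libraries. Without null libraries 3, 4 and 6 the differences were -0.018 for Hoxa7, 0.38 for Hoxb6, 0.40 for Hoxd4, 0.39 for Hoxd8, 0.41 for Hoxd9 and -0.17 for Hoxd12. Without null libraries 1, 2 and 5 they were -0.12 for Hoxb2, -0.21 for Hoxb7, -0.55 for Hoxb8 and -0.66 for Hoxd3. Without wild-type libraries 4 to 6 they were 0.019 for Hoxb3, -0.071 for Hoxb7 and -0.12 for Hoxd12, and without libraries 1 to 3 0.067 for Hoxb6 and 0.031 for Hoxd8. Upper quartile scaling gave -0.018 for Hoxd12. With 1 library left out, the differences ran from -0.27 to 0.10 for Hoxb6, -0.077 to 0.31 for Hoxd3, -0.18 to 0.066 for Hoxd8, -0.30 to 0.018 for Hoxd9 and -0.045 to 0.12 for Hoxd12. The cause was not tested. No paired analysis was possible because the labels link no wild-type library to a null library.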
